A study of Homo sapiens with 15 samples.

Results

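The 10 genes described here belong to the endoplasmic reticulum (ER) stress response and the integrated stress response: ERN1, EIF2AK3, ATF6, ATF4, XBP1, DDIT3, CHAC1, TRIB3, PPP1R15A and ASNS. They were picked by name as members of these pathways, with earlier results of these data known. All 10 were found among the 60649 genes of the count table, and all 10 passed the filter on low counts that left 23711 genes for testing. The cells were K562, an established human chronic myeloid leukemia line that carries the BCR-ABL fusion. They were left untreated or were exposed for 24 h to martinostat, an inhibitor of histone deacetylases, at 0.15, 0.25, 0.5 or 1 µM, with 3 biological replicates in each of the 5 groups. No other agent or genetic change was named for any group, and the labels do not say whether the untreated cells received solvent.

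Library totals lay between 23755510 and 32805574 counts. Untreated cells held the erythroid genes that mark K562 (GATA1 at 328 and HBZ at 1052 CPM, counts scaled to a common library size), whereas the lymphocyte marker MS4A1 and the granulocyte markers MPO and ELANE were at 0. The replicate 3 libraries at 0.25 and 0.5 µM stood apart from their groups on the principal component that held 3.84% of the variance, with scores of 78.4 and 82.6 against -16.6 to -15.3 and -54.3 to -24.5 in the other libraries of these doses. Where leaving out both changed a call of a member, the value without them is given. Some values that moved by over 1.5 times are given as well, but not all.

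The ER stress response begins with a set of sensors in the ER membrane. ERN1 encodes IRE1, which splices the XBP1 mRNA, EIF2AK3 encodes PERK, a kinase that phosphorylates the translation initiation factor eIF2, and ATF6 encodes a membrane-bound transcription factor that is cut free under stress. The integrated stress response joins PERK with other eIF2 kinases that sense heme, amino acids or double-stranded RNA. Phosphorylated eIF2 lowers general translation but favours translation of the ATF4 mRNA, and ATF4 with its partner CHOP (the product of DDIT3) drives genes such as CHAC1, TRIB3, PPP1R15A and ASNS. Sensor activity, XBP1 splicing and ATF4 translation are regulated after transcription, so the gene-level mRNA counts below do not measure them.

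Short stretches of the promoters are shown first, because XBP1, CHAC1, PPP1R15A and ASNS carry a motif that was searched for near the start site. Whether the motifs bear on the changes below was not tested. The promoter table of RefSeq (GRCh38.p14) held all 10 genes in 16 windows, each reaching from 250 bases before to 50 bases after a start site. Each motif was searched on both strands. The C/EBP-ATF composite core TGATGNAA occurred in 3.62% of all 35116 promoters, the ER stress response element (CCAAT, then 9 bases of any kind, then CCACG) in 0.0769%, the cyclic AMP response element TGACGTCA in 1.85% and the unfolded protein response core TGACGTGG in 0.729%. Among the 10 genes, 4 held a motif, and none held the last. The matches lie within the 30 bases given here, written 5′ to 3′ on the strand of the gene with the motif in capitals, and a match is a description of the letters only.
CHAC1, chr15:40953251-40953280, plus strand, composite core in the opposite orientation from base -209: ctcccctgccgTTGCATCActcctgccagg
ASNS, chr7:97872458-97872487, minus strand, composite core from base -68: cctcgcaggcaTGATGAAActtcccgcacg
XBP1, chr22:28800597-28800626, minus strand, ER stress response element from base -52: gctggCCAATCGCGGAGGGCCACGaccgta
PPP1R15A, chr19:48872352-48872381, plus strand, cyclic AMP response element from base -58: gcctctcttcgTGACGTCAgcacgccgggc

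To compare levels between genes, CPM, scaled by trimmed means of M-values (TMM), were divided by kilobases of exon. These were the exon bases of all annotated transcripts of a gene that no other gene shares. In untreated cells ATF4 stood highest, at 146 ± 14.5 CPM per kb (SD, n = 3), followed by XBP1 at 58.9 ± 2.32, TRIB3 at 49.8 ± 3.30, PPP1R15A at 22.0 ± 0.660, DDIT3 at 14.7 ± 0.623, ATF6 at 11.1 ± 0.720 and CHAC1 at 2.47 ± 0.0354. No neighbours in that order overlapped between libraries. ERN1, ASNS and EIF2AK3 were lowest, at 0.949 ± 0.133, 0.897 ± 0.0985 and 0.891 ± 0.0977 CPM per kb, and their libraries overlapped. At 1 µM the order was different: ATF4 was at 58.6 ± 15.1 CPM per kb and DDIT3 at 47.0 ± 7.51, with overlapping libraries, and PPP1R15A at 33.3 ± 2.35 stood above XBP1 at 12.8 ± 0.213 and TRIB3 at 7.66 ± 1.14. The order depends on which exon bases are counted. With only genes on its own strand taken to share them, DDIT3 was at 9.63 ± 0.409 CPM per kb in untreated cells, below ATF6, and at 30.8 ± 4.93 at 1 µM, below PPP1R15A. Canonical transcripts are shorter than the bases used here: 4536 exon bases against 19910 for EIF2AK3, 7895 against 18269 for ERN1 and 7470 against 14263 for ATF6. An order on canonical transcripts was not tested, so the low places of such genes hold for this divisor only. For ASNS, 99.5% of the canonical exon bases are shared and so were left out of its 2481 bases. Its low place is therefore not a measure of the canonical ASNS transcript.

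Exons of some of the genes lie under other genes, which limits what their counts hold. In the GENCODE annotation, 99.5% of the exon bases of the canonical ASNS transcript are shared with a readthrough gene on the same strand, and so are 100% of its coding bases. Over all its transcripts, 50.7% of the ASNS exon bases are shared with no other gene. ASNS had few counts, and whether the overlap lowered them was not tested. Of DDIT3, 35.9% of the canonical exon bases are shared, mainly with MARS1 on the opposite strand, and of EIF2AK3 17.2%. The strand setting of the counting is not given in the sources used here. MARS1 counts ran from 10566 to 11781 in untreated cells and from 3979 to 4073 at 1 µM, the opposite direction to DDIT3. The other members share 1.29% (ERN1) or none of these bases.

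**Figure D1:**
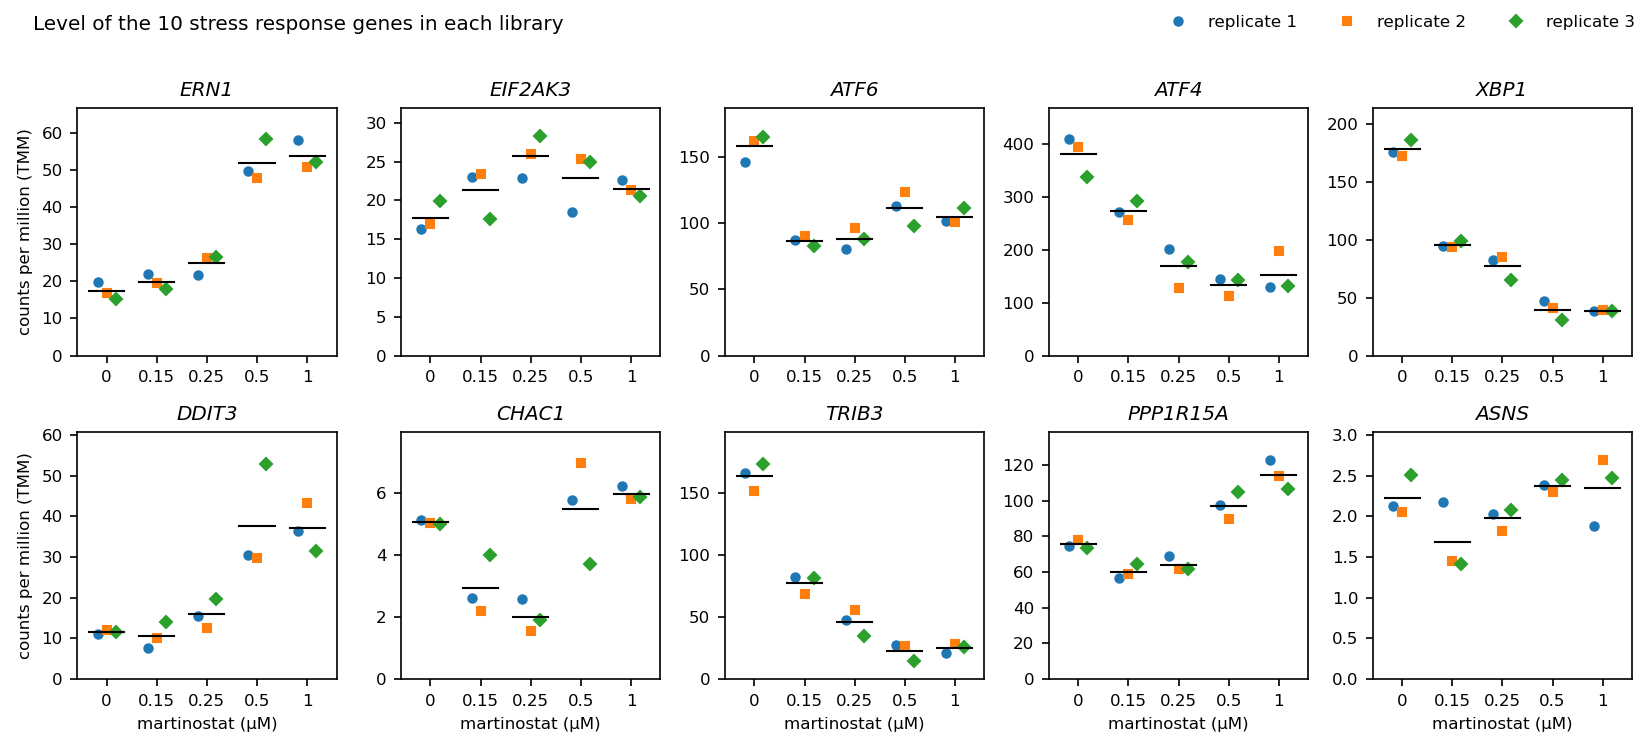
CPM (counts scaled by TMM, linear axes from 0) of the 10 genes in each of the 15 libraries, by martinostat dose in µM; symbols mark replicate numbers and the black line is the group mean. XBP1 and TRIB3 step down from untreated cells to 0.5 µM, ERN1 and DDIT3 step up at 0.5 µM, and CHAC1 is lowest at 0.25 µM.

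The sensors did not move together. The transcript of IRE1 rose about 3-fold at the upper doses and that of ATF6 was lower at every dose. That of PERK was called only at 0.25 µM, although some alternatives called it at other doses. ERN1 was at 20.0, 16.9 and 15.1 CPM in untreated cells, at 22.0, 19.7 and 17.9 at 0.15 µM, at 21.8, 26.3 and 26.7 at 0.25 µM, at 49.7, 48.0 and 58.5 at 0.5 µM and at 58.2, 51.0 and 52.3 at 1 µM. The untreated libraries overlapped those at 0.15 µM and lay below all others. The log2 fold change against untreated cells was 0.52 ± 0.15 (SE) at 0.25 µM (edgeR quasi-likelihood test, adjusted p = 0.00481), 1.59 ± 0.15 at 0.5 µM (adjusted p = 2.33e-08) and 1.63 ± 0.15 at 1 µM (adjusted p = 1.57e-08), and 0.19 ± 0.15 at 0.15 µM, where the test was not passed (adjusted p = 0.286). With library totals as the scale the value at 0.15 µM was 0.55 and was called (adjusted p = 0.0244).

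ATF6 was at 146, 162 and 165 CPM in untreated cells, at 86.9, 90.2 and 82.4 at 0.15 µM, at 80.2, 96.6 and 88.3 at 0.25 µM, at 113, 123 and 98.1 at 0.5 µM and at 102, 101 and 111 at 1 µM. Every treated library lay below every untreated one, and the lowest levels were at the lower doses. Its log2 fold change was -0.87 ± 0.13 at 0.15 µM (adjusted p = 1.72e-05), -0.84 ± 0.13 at 0.25 µM (adjusted p = 1.62e-05), -0.50 ± 0.13 at 0.5 µM (adjusted p = 0.00195) and -0.60 ± 0.13 at 1 µM (adjusted p = 0.000463). With library totals as the scale the changes at 0.5 and 1 µM came to -0.14 (adjusted p = 0.327) and -0.24 (adjusted p = 0.0856), and neither was called. Limma on log2(FPKM + 1) called ATF6 at 0.15 µM and not at the doses above it (adjusted p from 0.0661 to 0.384). The FPKM of ATF6 lay between 0.384 and 0.614 over the libraries, so the added 1 shrinks its differences on that scale. In bulk RNA, less transcript per cell and fewer cells that hold it cannot be told apart.

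EIF2AK3 was at 16.3, 17.0 and 20.0 CPM in untreated cells, at 23.1, 23.5 and 17.6 at 0.15 µM, at 22.9, 26.0 and 28.4 at 0.25 µM, at 18.6, 25.3 and 25.0 at 0.5 µM and at 22.7, 21.4 and 20.6 at 1 µM. The libraries at 0.15 and 0.5 µM overlapped the untreated ones. The largest mean was at 0.25 µM, where the log2 fold change was 0.54 ± 0.16 (adjusted p = 0.00783). At 0.15 µM it was 0.27 ± 0.16 (adjusted p = 0.18), at 0.5 µM 0.37 ± 0.16 (adjusted p = 0.0518) and at 1 µM 0.28 ± 0.16 (adjusted p = 0.139), and the test over the 5 groups was not passed (adjusted p = 0.0705). Library totals as the scale gave 0.63 at 0.15 µM (adjusted p = 0.0148), 0.77 at 0.5 µM (adjusted p = 0.00295) and 0.63 at 1 µM (adjusted p = 0.0106), all called. Of 26 alternatives, 3 called EIF2AK3 at 0.15 µM, 10 at 0.5 µM and 5 at 1 µM. DESeq2 was among those at 0.5 µM (0.45, adjusted p = 0.0154). EIF2AK3-DT, a transcript that starts beside EIF2AK3, went from 6 to 24 counts in untreated cells to 210 to 246 counts at 1 µM.

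Among the transcription factors, ATF4 and XBP1 mRNA fell and DDIT3 mRNA rose. XBP1 was at 176, 173 and 186 CPM in untreated cells, at 94.9, 93.4 and 99.2 at 0.15 µM, at 82.8, 84.8 and 65.6 at 0.25 µM, at 46.9, 40.7 and 30.7 at 0.5 µM and at 38.2, 39.4 and 38.8 at 1 µM. The libraries of each dose up to 0.5 µM lay wholly below those of the dose before it, and those at 0.5 and 1 µM overlapped. In log2 fold change XBP1 went from -0.90 ± 0.15 at 0.15 µM (adjusted p = 5.43e-05) and -1.20 ± 0.15 at 0.25 µM (adjusted p = 1.26e-06) to -2.18 ± 0.15 at 0.5 µM (adjusted p = 4.21e-10) and -2.20 ± 0.15 at 1 µM (adjusted p = 3.70e-10), a level 4.60-fold below that of untreated cells. The counts add the spliced and unspliced forms of XBP1.

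ATF4 was at 411, 396 and 339 CPM in untreated cells, at 273, 256 and 293 at 0.15 µM, at 202, 128 and 177 at 0.25 µM, at 144, 113 and 143 at 0.5 µM and at 129, 199 and 131 at 1 µM. Every treated library was below every untreated one. The log2 fold change was -1.18 ± 0.19 at 0.25 µM (adjusted p = 2.70e-05), -1.52 ± 0.19 at 0.5 µM (adjusted p = 1.11e-06) and -1.32 ± 0.19 at 1 µM (adjusted p = 6.09e-06). At 0.15 µM it was -0.48 ± 0.19 (adjusted p = 0.0394). That call was lost without untreated replicate 1 (adjusted p = 0.116) or 2 (adjusted p = 0.102), and without 0.15 µM replicate 1 (adjusted p = 0.0878), 2 (adjusted p = 0.115) or 3 (adjusted p = 0.0569) and with library totals as the scale (-0.12, adjusted p = 0.647).

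DDIT3, whose product CHOP favours cell death when stress persists, was at 11.0, 12.0 and 11.7 CPM in untreated cells, at 7.66, 10.1 and 14.0 at 0.15 µM, at 15.6, 12.6 and 19.8 at 0.25 µM, at 30.4, 29.8 and 52.9 at 0.5 µM and at 36.4, 43.3 and 31.5 at 1 µM. All libraries at 0.5 and 1 µM lay above all others, and replicate 3 at 0.5 µM stood well above its group. The log2 fold change was 1.71 ± 0.25 at 0.5 µM (adjusted p = 6.48e-06) and 1.68 ± 0.25 at 1 µM (adjusted p = 7.89e-06). With the replicate 3 libraries of 0.25 and 0.5 µM left out, the value at 0.5 µM was 1.42 ± 0.19 (adjusted p = 7.40e-07). At 0.15 µM it was -0.12 ± 0.24 (adjusted p = 0.698), and 0.23 with library totals as the scale (adjusted p = 0.560). At 0.25 µM it was 0.47 ± 0.24 (adjusted p = 0.102), a value that was called without 0.5 µM replicate 3 (adjusted p = 0.0428) and with library totals as the scale (1.02, adjusted p = 0.00759), and that came to 0.30 (adjusted p = 0.190) with both replicate 3 libraries left out. The MIR616 row, which covers an intron of DDIT3, went from 7 to 10 counts in untreated cells to 89 to 133 counts at 1 µM.

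The ATF4 and CHOP targets went different ways. TRIB3, a pseudokinase that holds back AKT and ATF4, was the member with the largest fall. It was at 167, 152 and 173 CPM in untreated cells, at 82.0, 68.5 and 81.4 at 0.15 µM, at 47.5, 55.4 and 34.4 at 0.25 µM, at 27.4, 26.3 and 14.6 at 0.5 µM and at 21.0, 28.3 and 26.3 at 1 µM. Each dose up to 0.5 µM had libraries wholly below those of the dose before it. TRIB3 stood at a log2 fold change of -1.08 ± 0.21 at 0.15 µM (adjusted p = 0.000241), -1.84 ± 0.21 at 0.25 µM (adjusted p = 4.88e-07), -2.85 ± 0.22 at 0.5 µM (adjusted p = 1.56e-09) and -2.70 ± 0.22 at 1 µM (adjusted p = 2.91e-09), which is 7.21-fold below untreated cells at 0.5 µM and 6.50-fold below at 1 µM.

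PPP1R15A encodes GADD34, which brings a phosphatase to eIF2 and so ends the integrated stress response. It was at 74.8, 78.0 and 73.6 CPM in untreated cells, at 56.8, 58.9 and 64.3 at 0.15 µM, at 68.7, 61.7 and 61.9 at 0.25 µM, at 97.4, 89.7 and 105 at 0.5 µM and at 123, 114 and 106 at 1 µM. All libraries of the lower doses were below the untreated ones and all libraries of the upper doses above them. It rose by 0.37 ± 0.12 on the log2 scale at 0.5 µM (adjusted p = 0.0119, or 0.0827 with no filter) and by 0.60 ± 0.12 at 1 µM (adjusted p = 0.000245), and the value at 0.25 µM was -0.24 ± 0.12 (adjusted p = 0.0973). At 0.15 µM it was -0.33 ± 0.12 (adjusted p = 0.0284), a call that was lost without untreated replicate 1 (adjusted p = 0.0598), 2 (adjusted p = 0.0950) or 3 (adjusted p = 0.0582) and without 0.15 µM replicate 1 (adjusted p = 0.102) or 2 (adjusted p = 0.0804). With library totals as the scale the signs at 0.15 and 0.25 µM turned, to 0.03 and 0.29, and neither value was called.

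CHAC1, which breaks down glutathione, was at 5.15, 5.06 and 5.01 CPM in untreated cells, at 2.64, 2.19 and 4.03 at 0.15 µM, at 2.58, 1.54 and 1.90 at 0.25 µM, at 5.79, 6.99 and 3.73 at 0.5 µM and at 6.25, 5.84 and 5.89 at 1 µM. It was lowest at 0.25 µM and back near the untreated level at the upper doses. Against untreated cells it stood at a log2 fold change of -1.34 ± 0.28 at 0.25 µM (adjusted p = 0.000432), 0.11 ± 0.27 at 0.5 µM (adjusted p = 0.736) and 0.24 ± 0.27 at 1 µM (adjusted p = 0.446). Without the replicate 3 libraries of 0.25 and 0.5 µM the value at 0.5 µM was 0.37 (adjusted p = 0.205). Limma on log2(FPKM + 1) called the value at 1 µM (0.35, adjusted p = 0.0183). At 0.15 µM it was -0.78 ± 0.28 (adjusted p = 0.0241), which was no longer called without untreated replicate 1 (adjusted p = 0.0536), 2 (adjusted p = 0.0526) or 3 (adjusted p = 0.0504), without 0.15 µM replicate 1 (adjusted p = 0.0857) or 2 (adjusted p = 0.117), or with library totals as the scale (adjusted p = 0.187).

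ASNS, which makes asparagine, lay between 1.41 and 2.69 CPM over the 15 libraries. No value of it passed a test, and the test over the 5 groups gave an adjusted p of 0.388. The readthrough gene itself held 16 to 26 counts in untreated cells and 15 to 32 at 1 µM. Whether ASNS reads over the shared bases went uncounted was not tested.

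**Figure D2:**
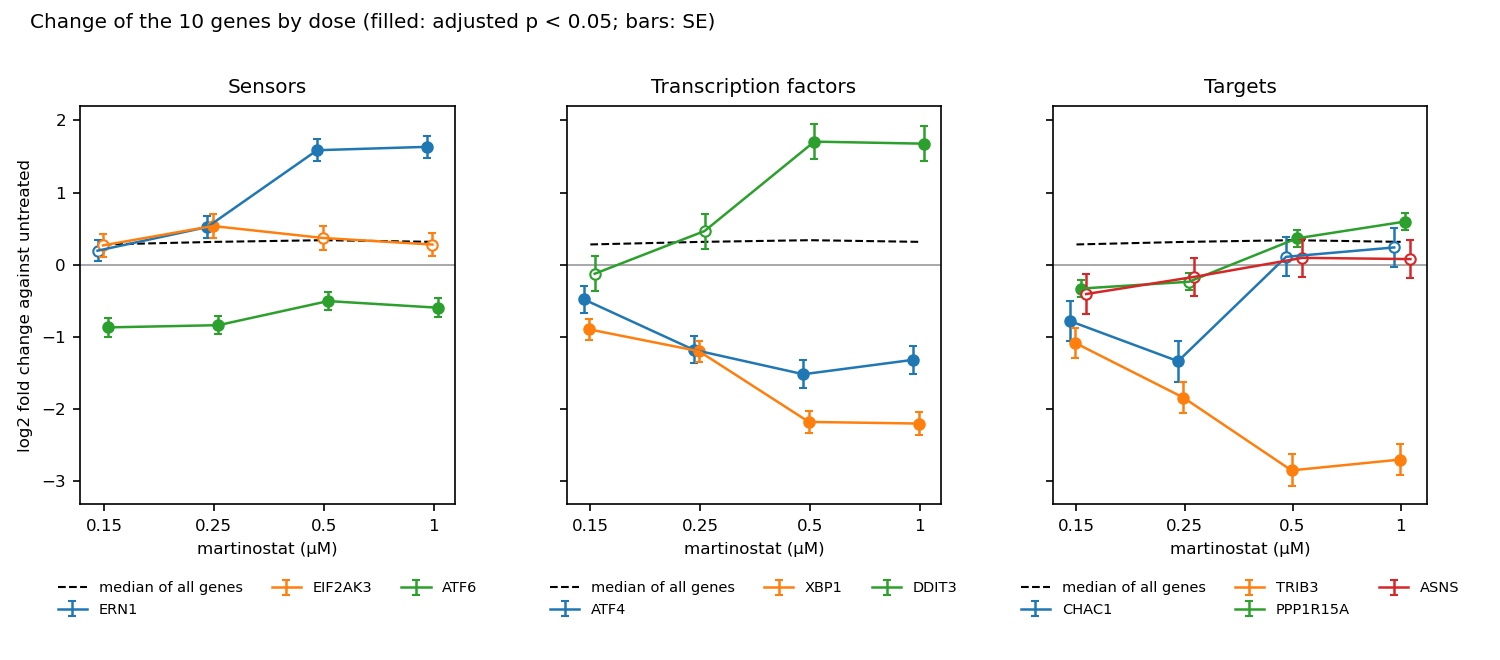
Log2 fold change against untreated cells (y axis) at each martinostat dose in µM (x axis), with standard errors, for the sensors, the transcription factors and the targets; filled points passed an adjusted p of 0.05 and the dashed line is the median of all 23711 genes. ERN1 and DDIT3 reach about 1.6 to 1.7 at 0.5 and 1 µM, XBP1 and TRIB3 reach -2.2 and -2.7 at 1 µM, and EIF2AK3 runs near the median line.

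The counts of members are read against all genes, since martinostat moved much of the transcriptome. At 0.15 µM, 0 members were called higher (31.9% of all genes) and 6 lower (19.4% of all genes): ATF6, ATF4, XBP1, CHAC1, TRIB3 and PPP1R15A. Of those, ATF6, XBP1 and TRIB3 were called under all alternatives tried. DESeq2 and an unadjusted p of 0.05 also gave 0 members higher at this dose, whereas library totals as the scale gave 2, ERN1 and EIF2AK3. At 0.25 µM, 2 members were higher (37.4% of all genes), ERN1 and EIF2AK3, and 5 lower (24.8% of all genes). At 0.5 µM 3 were higher (39.4% of all genes) and 4 lower (27.6% of all genes), and at 1 µM again 3 were higher (38.8% of all genes) and 4 lower (27.5% of all genes). At both of these doses ERN1, DDIT3 and PPP1R15A were higher and ATF6, ATF4, XBP1 and TRIB3 lower. The libraries of a dose and those of untreated cells did not overlap in 6, 9, 7 and 9 members from 0.15 to 1 µM (63.2%, 67.5%, 69.9% and 74.9% of all genes). These comparisons share the untreated libraries. Over the 5 groups, 8 of the 10 members differed, against 73.6% of all genes, so a difference as such does not set the members apart.

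The median log2 fold change of all genes against untreated cells was itself above 0, between 0.28 and 0.34 under TMM and between 0.64 and 0.85 with library totals. Set against the TMM median at 1 µM, ERN1 stood at 1.32, DDIT3 at 1.36, PPP1R15A at 0.28, EIF2AK3 at -0.04, CHAC1 at -0.08, ATF6 at -0.91, ATF4 at -1.63, XBP1 at -2.52 and TRIB3 at -3.02. Ordered by log2 fold change at 1 µM among all genes, DDIT3 was at percentile 71.4, ERN1 at 70.8 and PPP1R15A at 55.6. ATF6 was at percentile 28.9, ATF4 at 14.3, XBP1 at 4.95 and TRIB3 at 2.64. PPP1R15A at 0.5 µM stood at 0.03, at the median of all genes. The direction against untreated cells of ERN1, DDIT3, ATF4, XBP1 and TRIB3 at 0.5 and 1 µM was called under each of the 4 scalings tried.

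**Figure D3:**
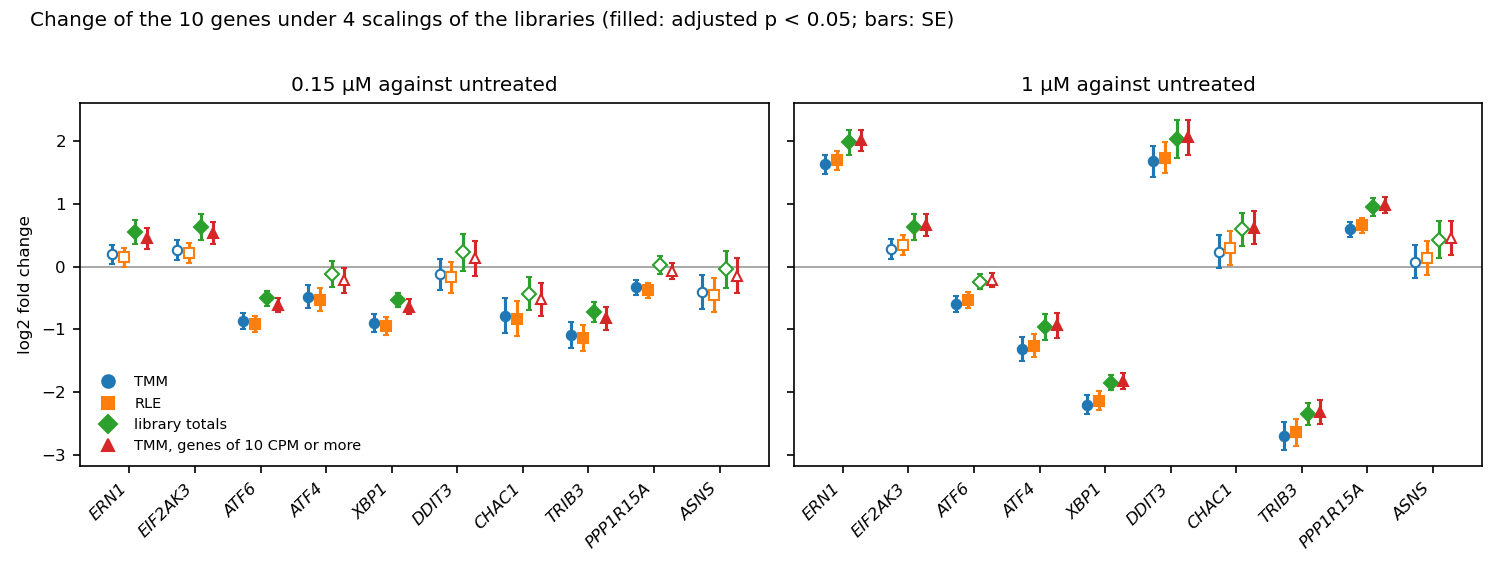
Log2 fold change against untreated cells, with standard errors, of the 10 genes at 0.15 µM (left) and 1 µM (right) under 4 scalings of the libraries; filled points passed an adjusted p of 0.05. At 0.15 µM the points of ATF4, CHAC1 and PPP1R15A open under library totals and under TMM restricted to genes with 10 or more CPM, while ATF6, XBP1 and TRIB3 are filled under all 4.

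The steps between doses show where the members moved. From 0.15 to 0.25 µM, 0 members were called higher (4.96% of all genes) and 2 lower (7.32% of all genes), ATF4 by -0.70 ± 0.19 (adjusted p = 0.0205) and TRIB3 by -0.76 ± 0.21 (adjusted p = 0.0222). Both calls were lost without 0.15 µM replicate 1 (adjusted p = 0.0529 for ATF4 and 0.0737 for TRIB3) or replicate 3 (0.101 and 0.0852). The ATF4 call was also lost without 0.25 µM replicate 2 (adjusted p = 0.0984) and the TRIB3 call without 0.25 µM replicate 3 (adjusted p = 0.102). At an unadjusted p of 0.05, 2 members were higher, ERN1 and DDIT3, and libraries did not overlap in 3 members (30.6% of all genes). DESeq2 called 1 member higher, ERN1 (0.42 ± 0.16, adjusted p = 0.0435). XBP1 (-0.30 ± 0.15, adjusted p = 0.200) came to -0.17 (adjusted p = 0.379) without the replicate 3 libraries of 0.25 and 0.5 µM. DDIT3 (0.59 ± 0.24, adjusted p = 0.123) was called without 0.5 µM replicate 3 (adjusted p = 0.0424).

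From 0.25 to 0.5 µM, 4 members were higher (14.4% of all genes) and 2 lower (16% of all genes). CHAC1 rose by 1.45 ± 0.28 (adjusted p = 0.000615), DDIT3 by 1.24 ± 0.24 (adjusted p = 0.000638), ERN1 by 1.06 ± 0.15 (adjusted p = 1.95e-05) and PPP1R15A by 0.60 ± 0.12 (adjusted p = 0.000803) on the log2 scale. TRIB3 fell by 1.01 ± 0.21 (adjusted p = 0.00109) and XBP1 fell by 0.98 ± 0.15 (adjusted p = 5.43e-05). Libraries of these doses did not overlap in 8 members (38.6% of all genes). Libraries of the same number deviated together at these doses, but pairing cannot be told apart from a likeness of the replicate 3 libraries alone. In a fit of only these groups with the replicate number as a block, 5 members were higher and 3 lower. The share of all genes called in that fit is not given here, so these counts have no background to be read against. ATF6 (0.32 ± 0.10, adjusted p = 0.0170) and ATF4 (-0.33 ± 0.10, adjusted p = 0.0105) were called in addition there. In the fit of all groups without a block they were at 0.33 ± 0.13 (adjusted p = 0.0557) and -0.34 ± 0.19 (adjusted p = 0.188). With the block in the fit of all groups neither was called (adjusted p = 0.0628 for ATF6 and 0.216 for ATF4). The ATF6 value was also called by DESeq2 (0.37, adjusted p = 0.0116) and without 0.15 µM replicate 3 (adjusted p = 0.0363) or 0.5 µM replicate 3 (adjusted p = 0.0195), or without the replicate 3 libraries of both doses (0.43, adjusted p = 0.0154), and came to 0.17 (adjusted p = 0.307) with library totals as the scale. With the replicate 3 libraries of both doses left out, the values of CHAC1, DDIT3, ERN1 and PPP1R15A were 1.64, 1.11, 1.04 and 0.54 and that of XBP1 was -0.92, all called.

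From 0.5 to 1 µM no member was called, and neither was any other gene (0% of all genes). At an unadjusted p of 0.05, 372 of 23711 genes and 0 of the 10 members passed. DESeq2 called 0 genes and limma on the FPKM values 1, not a member. Member differences ran from -0.09 ± 0.13 (ATF6) and -0.09 ± 0.16 (EIF2AK3) to 0.23 ± 0.12 (PPP1R15A), whose libraries did not overlap (5.63% of all genes did not). These values do not show that the doses act alike.

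From 0.15 to 1 µM, 4 members were higher (21.5% of all genes) and 3 lower (23.1% of all genes). DDIT3 differed by 1.80 ± 0.25 (adjusted p = 9.00e-06), ERN1 by 1.44 ± 0.15 (adjusted p = 2.79e-07), CHAC1 by 1.02 ± 0.27 (adjusted p = 0.00525) and PPP1R15A by 0.93 ± 0.12 (adjusted p = 4.85e-06), and TRIB3 by -1.62 ± 0.21 (adjusted p = 4.98e-06), XBP1 by -1.31 ± 0.15 (adjusted p = 1.04e-06) and ATF4 by -0.84 ± 0.19 (adjusted p = 0.00127). Libraries did not overlap in 8 members (58.7% of all genes). ATF6 (0.27 ± 0.13, adjusted p = 0.0930) was called by DESeq2 on all libraries (0.38, adjusted p = 0.00563). In separate edgeR fits it was also called without 0.25 µM replicate 3 (adjusted p = 0.0486) and without the replicate 3 libraries of 0.25 and 0.5 µM (0.31, adjusted p = 0.0192).

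**Figure D4:**
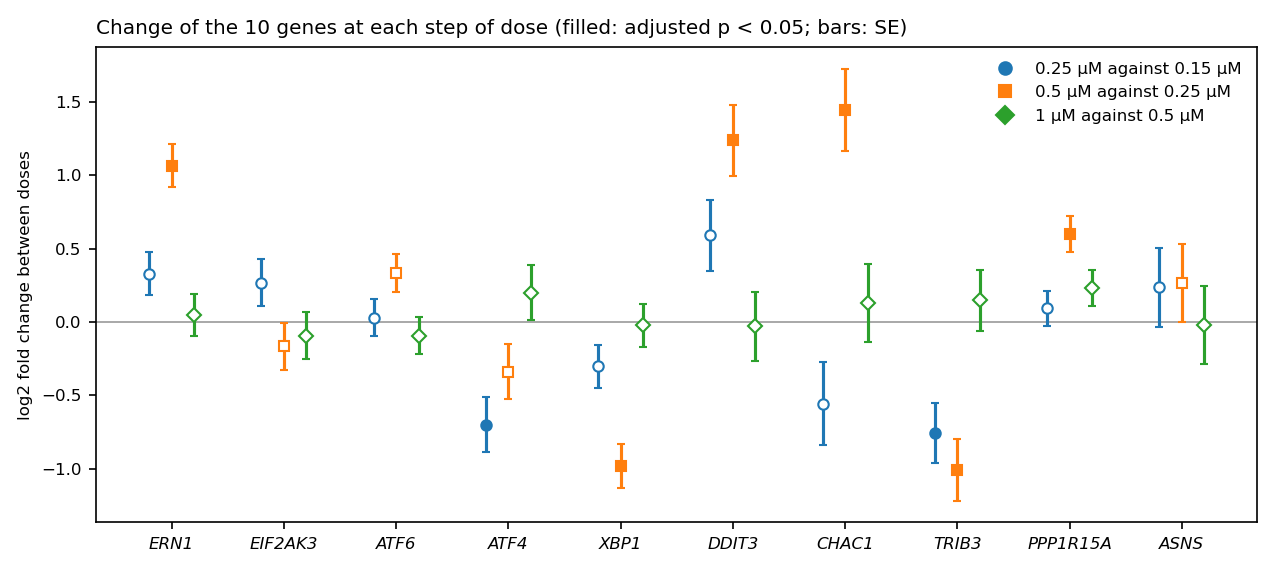
Log2 fold change between neighbouring doses (y axis) of the 10 genes (x axis), with standard errors; filled symbols passed an adjusted p of 0.05. The step from 0.25 to 0.5 µM has 6 filled symbols, that from 0.15 to 0.25 µM has 2 and that from 0.5 to 1 µM has none.

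Across the 15 libraries the log2 CPM of XBP1 and TRIB3 ran together (Pearson r = 0.985), as did those of ERN1 and DDIT3 (r = 0.916), ATF4 and TRIB3 (r = 0.893) and DDIT3 and PPP1R15A (r = 0.876). ERN1 ran against XBP1 (r = -0.946) and DDIT3 against TRIB3 (r = -0.869). These correlations describe 15 libraries that share the dose groups. Among 10127 genes of at least 10 CPM, the patterns most like XBP1 were those of MRPL15 (r = 0.995), AVEN (r = 0.990) and SCD (r = 0.990), most like ATF4 those of MOGS (r = 0.968), LRFN4 (r = 0.965) and GATD1 (r = 0.964), and most like DDIT3 those of HSDL1 (r = 0.976), ZNF333 (r = 0.967) and DDIT4 (r = 0.967).

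The other genes of the pathways were taken from 6 lists chosen by function. Their counts are read against the shares of all genes called higher and lower. These were 31.9% and 19.4% at 0.15 µM, 37.4% and 24.8% at 0.25 µM, 39.4% and 27.6% at 0.5 µM and 38.8% and 27.5% at 1 µM. Among the remaining eIF2 kinases, the subunits of eIF2 and its exchange factor eIF2B and their partners, 16 genes were tested. Called higher were 0 at each dose, and called lower were 12, 13, 11 and 11 from 0.15 to 1 µM, with a median log2 fold change at 1 µM of -1.07 against 0.32 for all genes. EIF2AK2 encodes PKR, the kinase that senses double-stranded RNA, and went from 105 ± 3.83 CPM (SD, n = 3) in untreated cells to 21.4 ± 2.75 at 1 µM (-2.29 ± 0.15, adjusted p = 1.97e-10). GCN1, the ribosome-bound activator of the amino acid sensor GCN2, went from 779 ± 44.9 to 183 ± 34.0 CPM (-2.09 ± 0.19, adjusted p = 1.93e-08). DESeq2 also called 0 genes of this list higher at 0.15 and 1 µM, as did an unadjusted p of 0.05, whereas library totals as the scale gave 1 at each.

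Targets of ATF4 and CHOP outside the 10 genes went both ways. Of 30 tested, 10 were higher and 14 lower at 1 µM, after 8 and 13 at 0.15 µM, 11 and 15 at 0.25 µM and 10 and 15 at 0.5 µM. At 1 µM that was 33.3% higher and 46.7% lower, against 38.8% and 27.5% of all genes. ATF3, a stress-induced transcription factor, rose from 5.22 ± 0.332 to 34.3 ± 4.52 CPM at 1 µM (2.72 ± 0.18, adjusted p = 2.06e-10) and was called at every dose. TNFRSF10B, the death receptor DR5 and a known CHOP target, rose from 47.0 ± 3.49 to 260 ± 26.1 CPM (2.47 ± 0.17, adjusted p = 3.58e-10). PSAT1, an enzyme of serine synthesis, fell from 70.7 ± 5.61 to 13.7 ± 1.47 CPM (-2.37 ± 0.17, adjusted p = 6.93e-10), and SLC7A1, a carrier of cationic amino acids, from 223 ± 20.4 to 43.8 ± 9.25 CPM (-2.35 ± 0.20, adjusted p = 4.77e-09).

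Of 16 ER chaperones and folding enzymes, 6 rose and 2 fell at 0.15 µM, 3 rose and 5 fell at 0.25 µM, and 2 rose and 6 fell at both upper doses. At 1 µM that was 12.5% higher and 37.5% lower, against 38.8% and 27.5% of all genes. At 0.5 µM the call of HSPA5 (adjusted p = 0.0497) was lost under 14 of 26 alternatives, with an adjusted p of up to 0.176. HSPA5, the chaperone BiP that holds the sensors inactive, was at 1235 ± 102 CPM in untreated cells, at 1979 ± 266 at 0.25 µM (0.68 ± 0.17, adjusted p = 0.00194) and at 1802 ± 172 at 1 µM (0.54 ± 0.17, adjusted p = 0.00861). CALR, the lectin chaperone calreticulin, went from 1580 ± 38.8 to 2788 ± 219 CPM at 1 µM (0.82 ± 0.23, adjusted p = 0.00437). The disulfide isomerases PDIA6 (-1.47 ± 0.15, adjusted p = 5.44e-08) and TXNDC5 (-1.62 ± 0.24, adjusted p = 1.01e-05) fell at this dose, from 357 ± 41.6 to 129 ± 8.76 CPM and from 25.3 ± 1.68 to 8.25 ± 3.08 CPM. With library totals as the scale, 6 genes of the list were higher at 1 µM, where 69.3% of all called genes were higher on that scale.

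Of 18 genes of ER-associated degradation, which sends misfolded proteins to the proteasome, 7 were higher and 8 lower at 1 µM, which was 38.9% and 44.4%. HERPUD1, a scaffold of the degradation complex, rose at each dose, from 36.1 ± 2.16 to 122 ± 6.25 CPM at 1 µM (1.76 ± 0.13, adjusted p = 9.07e-10). OS9, a lectin that picks out glycoproteins, rose from 110 ± 10.5 to 287 ± 7.71 CPM (1.39 ± 0.16, adjusted p = 3.18e-07). The ubiquitin-conjugating enzyme gene UBE2J1 fell from 120 ± 9.84 to 17.1 ± 2.70 CPM (-2.81 ± 0.16, adjusted p = 3.30e-11) and DERL1, of the exit channel, from 102 ± 5.18 to 37.2 ± 1.74 CPM (-1.45 ± 0.14, adjusted p = 4.01e-08). At 0.15 µM 4 were higher and 6 lower, which became 7 and 1 with library totals as the scale, and at 1 µM 4 were lower on that scale. Of all genes called on that scale, 81.9% were higher at 0.15 µM and 69.3% at 1 µM.

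The XBP1 targets that serve protein entry and transport along the secretory route were mostly lower: of 18 tested, 11, 13, 13 and 14 from 0.15 to 1 µM, with 3, 5, 3 and 3 higher. The median log2 fold change at 1 µM was -0.85. LMAN1, a cargo receptor between ER and Golgi, fell from 412 ± 39.3 to 134 ± 12.5 CPM (-1.62 ± 0.17, adjusted p = 1.37e-07) and SRPRB, of the receptor that docks ribosomes at the ER, from 123 ± 3.95 to 29.7 ± 4.06 CPM (-2.04 ± 0.19, adjusted p = 2.47e-08). WFS1, the ER membrane protein wolframin, went the other way, from 0.424 ± 0.135 CPM (32 counts over 3 libraries) through 23.2 ± 5.68 at 0.15 µM to 95.8 ± 10.7 at 1 µM (7.81 ± 0.27, adjusted p = 3.51e-14). ARFGAP3, of the Golgi coat, rose from 7.24 ± 1.48 to 14.1 ± 1.24 CPM (0.96 ± 0.24, adjusted p = 0.00178). At 0.15 µM, library totals as the scale gave 7 lower genes in place of 11.

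Among 14 signalling partners of the sensors, 4 were higher and 4 lower at 1 µM, which was 28.6% each. The membrane-bound factor CREB3L3 had 2 counts over the untreated libraries, 146 at 0.15 µM and 3484 at 1 µM, a scaled ratio at 1 µM of 1541 with a 95% interval from 426 to 12728 that covers counting error only. CREB3L1, a factor of the same family, rose from 8.68 ± 2.62 to 42.3 ± 7.34 CPM (2.28 ± 0.26, adjusted p = 3.56e-07). TRAF2, the adaptor that links IRE1 to stress kinases, fell from 80.8 ± 3.22 to 33.9 ± 2.44 CPM (-1.25 ± 0.13, adjusted p = 1.29e-07), and MBTPS2, a protease that frees ATF6, from 52.7 ± 4.19 to 26.6 ± 3.63 CPM (-0.98 ± 0.15, adjusted p = 1.57e-05). At 0.15 µM 4 were higher and 4 lower, which became 8 and 2 with library totals as the scale. Of all genes called at this dose on that scale, 81.9% were higher.

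**Figure D5:**
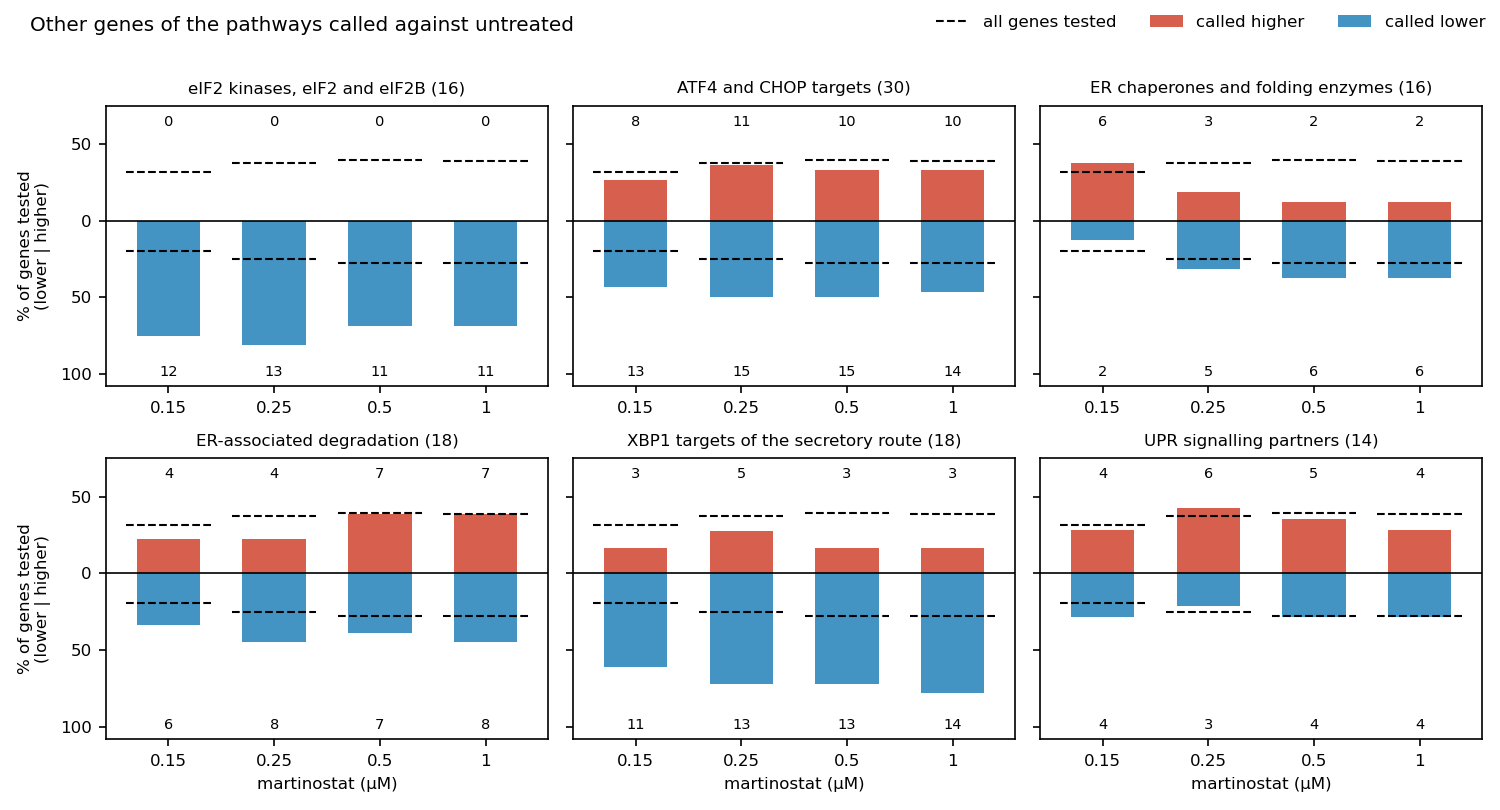
Share of the tested genes of each list (list size in brackets) called higher (red, upwards) or lower (blue, downwards) than untreated cells at each martinostat dose in µM, in percent; numbers are gene counts and dashed lines are the shares among all 23711 genes. The eIF2 list has no gene called higher and 11 to 13 called lower, and the secretory list has 11 to 14 lower.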

How the data were processed

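Per the labels, poly(A) RNA of K562 cells was made into directional libraries. The authors trimmed reads with Trim Galore 0.6.10, aligned them to hg38 with HISAT2 2.2.1, sorted them with SAMtools 1.21 and counted them with featureCounts 1.5.3 (versions from the submitters' processing notes). The deposited count table holds unnormalized gene counts. The deposited FPKM tables divide the counts by a gene length and the library total, and for 9 of the 10 members that length was the whole genomic span.

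Genes were filtered by filterByExpr and scaled by TMM, and all 15 libraries were fitted by group with edgeR 4.0.16 (quasi-likelihood F test, R 4.3.3), with Benjamini-Hochberg adjustment over 23711 genes and calls at an adjusted p under 0.05. Fold changes are fitted and CPM are scaled counts. DESeq2 1.42.0, limma 3.58.1 on log2(FPKM + 1) for genes of mean FPKM of at least 0.1, other scalings and filters and leaving out libraries were alternatives. Leaving out the replicate 3 libraries of 0.25 and 0.5 µM together, and the block in fits of only the groups compared, were chosen after the data were seen. The members and lists were chosen with earlier results of these data known. From each list, the genes named were those called at 1 µM with a mean of at least 10 CPM, up to 2 with the greatest rise and up to 2 with the greatest fall, and each of ATF4, XBP1 and DDIT3 was given the 3 genes that correlated best with it. Scripts were tested on simulated data.

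The labels give biological replicates with numbers from 1 to 3. After group means were subtracted, libraries with the same number correlated at 0.209, 0.208 and 0.506 between 0.25 and 0.5 µM and at 0.0731 or less between all other groups, so the numbers were taken to pair libraries between these doses only. Deviations from a group mean balance out within the group, so these correlations are not independent of each other. Libraries of different numbers were not compared. Pairing therefore cannot be told apart from a likeness of the replicate 3 libraries alone. Members overlapping other genes were described with GENCODE 44 on hg38.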

Additional observations from a re-analysis of the deposited data

Results flagged for a closer look

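The estimates of DDIT3, CHAC1 and PPP1R15A lay on opposite sides of the untreated level at 0.15 and 1 µM, and the difference between these doses passed the test of the difference itself. It was 1.80 on the log2 scale for DDIT3, 1.02 for CHAC1 and 0.93 for PPP1R15A. Of the separate changes against untreated cells, CHAC1 and PPP1R15A at 0.15 µM and DDIT3 and PPP1R15A at 1 µM were called. DDIT3 at 0.15 µM (-0.12 ± 0.24) and CHAC1 at 1 µM (0.24 ± 0.27) were not. For these genes the difference between doses does not show that the untreated level was crossed. With library totals as the scale PPP1R15A and DDIT3 at 0.15 µM were at 0.03 and 0.23, so neither was below the untreated level, and with TMM restricted to genes with 10 or more CPM DDIT3 was at 0.13.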

How the results depend on the processing

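The 10 members gave 2080 values under 26 alternatives: 1945 kept their direction and call, 49 lost the call, 48 gained it and 38 changed sign. Of those 38, 2 had been called, PPP1R15A at 0.15 µM with library totals (0.0272) and with limma on FPKM (0.0252), and 36 were called in neither fit. At 0.15 µM the members called higher became 2 with library totals, with TMM restricted to genes with 10 or more CPM and with at least 10 counts in every library, and the members called lower became 3 with those and with limma, and ran from 3 to 6 when single libraries were left out. At 1 µM the members called higher became 5 with TMM restricted to genes with 10 or more CPM. From 0.15 to 0.25 µM the members called higher became 1 with no filter and with DESeq2 and ran from 0 to 1 when single libraries were left out. The members called lower became 1 with library totals, TMM restricted to genes with 10 or more CPM, at least 10 counts in every library, limma and only the groups compared, and ran from 0 to 2 when single libraries were left out. The cause was not tested.

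With the replicate block in the fit of all groups, 5 members were lower at 0.15 µM in place of 6, and 8 differed over the 5 groups. With the replicate block and only the groups compared, 0 members were lower from 0.15 to 0.25 µM, where the numbers did not pair the libraries. The counts of the other comparisons stayed within 1.5 times with either block.

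Of the 624 counts over the 6 pathway lists, 590 were within 1.5 times and 34 moved. Library totals raised the share of higher among called genes at 0.15 µM from 62.2% to 81.9% and at 1 µM from 58.5% to 69.3%. The 570 values at 1 µM of the genes named from the lists all kept their direction and call. CHAC1 and ASNS had few counts, which limits what could be detected for them.

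The other sign changes were these, as log2 fold changes or, for limma, as differences of log2(FPKM + 1). With library totals, TMM restricted to genes with 10 or more CPM, at least 10 counts in every library and limma, in that order, DDIT3 at 0.15 µM came to 0.227, 0.134, 0.0507 and 0.133, PPP1R15A at 0.25 µM to 0.289, 0.183, 0.05003 and 0.269, ASNS at 0.25 µM to 0.364, 0.254, 0.120 and 0.0319, and TXNDC5 at 0.15 µM to 0.249, 0.149, 0.0649 and 0.106. PDIA6 at 0.15 µM came to 0.104 with library totals, 0.00578 with restricted TMM and 0.0887 with limma. From 0.5 to 1 µM DDIT3 came to 0.0302 with the replicate block and 0.0125 with the block and only the groups compared. Without both replicate 3 libraries of 0.25 and 0.5 µM, DDIT3 came to 0.307, CHAC1 to -0.0851, TRIB3 to -0.0858 and ASNS to 0.0117. From 0.15 to 1 µM EIF2AK3 came to -0.000258 with no filter. When single libraries were left out, values ran from -0.384 to 0.0640 for DDIT3 at 0.15 µM, from -0.107 to 0.331 for CHAC1 at 0.5 µM, from -0.0296 to 0.214 for ASNS at 1 µM, from -0.0445 to 0.0907 for ATF6 from 0.15 to 0.25 µM and from -0.0675 to 0.0787 for EIF2AK3 from 0.15 to 1 µM. From 0.5 to 1 µM they ran from -0.0102 to 0.140 for ERN1, from -0.0283 to 0.310 for ATF4, from -0.174 to 0.123 for XBP1, from -0.168 to 0.300 for DDIT3, from -0.0912 to 0.346 for CHAC1, from -0.0906 to 0.307 for TRIB3 and from -0.122 to 0.123 for ASNS.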
